A study of Rattus norvegicus with 3 samples.

Results

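Interferon-stimulated genes were examined in kidney RNA of male Sprague-Dawley rats that received 200 ppm gamma-aminobutyric acid (GABA) in drinking water (G200) and of the negative control. The list holds 33 rat genes known to be switched on by interferon, and its members were the array probes whose RefSeq accession belongs to a listed gene. Probes were found for 29 of the 33 genes, among 26785 genes or unnamed transcripts on the array. Rigi, Zbp1, Herc6 and Xaf1 had no probe with a matching accession, so their level was not measured here, and Herc6 and Xaf1 entered only the count of promoters.

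The rats were 5 weeks old in the labels, and the tissue is described as kidney without tumor. RNA was measured on 3 Agilent arrays with 2 colours, each with the control labelled in Cy3 (green) and the treated kidney in Cy5 (red). GABA is an inhibitory transmitter of the nervous system that is also taken as a dietary supplement, and the comparison asks which kidney transcripts differ after its intake. The dyes were exchanged on 0 arrays, so dye and treatment cannot be separated in any ratio. The 3 green channels differed about as little as replicate spots, with 30 of 1116 probes differing after adjustment, while 738 of 1099 differed in red. The control was therefore counted as 1 sample and G200 as 3, and the spread between control rats does not enter the tests. Where control and G200 values are said below not to overlap, the 3 control values are readings counted as that 1 sample. The share of all genes without such overlap was not computed.

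Interferons are secreted proteins that cells release when they sense viral nucleic acids. Type I interferons bind a receptor whose signal leads a complex with STAT2 and IRF9 to the interferon-stimulated response element in promoters, whereas interferon gamma acts through the gamma-activated site. The induced genes encode sensors, transcription factors, proteins that block viral replication, chemokines and parts of antigen presentation. In kidney, tubular, endothelial and resident immune cells can all express such genes, and their induction is well known in lupus nephritis and viral infection.

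Of the 25 interferon-stimulated genes tested, 3 were higher in G200 than in control and 6 were lower at an adjusted p under 0.05 (limma, Benjamini-Hochberg over all 14188 genes). Cxcl10, Isg15 and Ifit2 were higher and Mx2 was lower, and so were Bst2, Ifi27, Stat2, Gbp5 and Ifi44 with loess, whose mean ratios lay above 0 without dye normalization. Over all genes tested, 11.6% were higher and 25.9% lower by the same rule, and the counts among the interferon-stimulated genes lie near these shares. The median log2 ratio of the 25 genes was 0.02, against -0.05 over all genes, and single genes ranged from -1.47 to 0.68. A log2 ratio above 0 stands for a higher level in G200. In whole kidney tissue, fewer cells of a type and less RNA per cell cannot be told apart.

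The directions depended on how the dyes were scaled. The median of all genes also moved, from -0.05 with loess to 0.27 with median centring of each array and to 0.62 without dye normalization. Of all called genes 30.8% were higher with loess, 80.0% with median centring and 96.3% without dye normalization. Cxcl10, Isg15 and Ifit2 were above 0 under each of these scalings and Mx2 was below 0 under each. Bst2, Ifi27, Ifi44 and Stat2 lay above 0 with median centring, and these and Gbp5 lay above 0 without dye normalization. Relative to the median of all genes, Bst2 (-0.17) and Gbp5 (-0.36) remained below it with median centring, whereas Stat2 (0.04), Ifi44 (0.05) and Ifi27 (0.07) lay just above it.

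**Figure D1:**
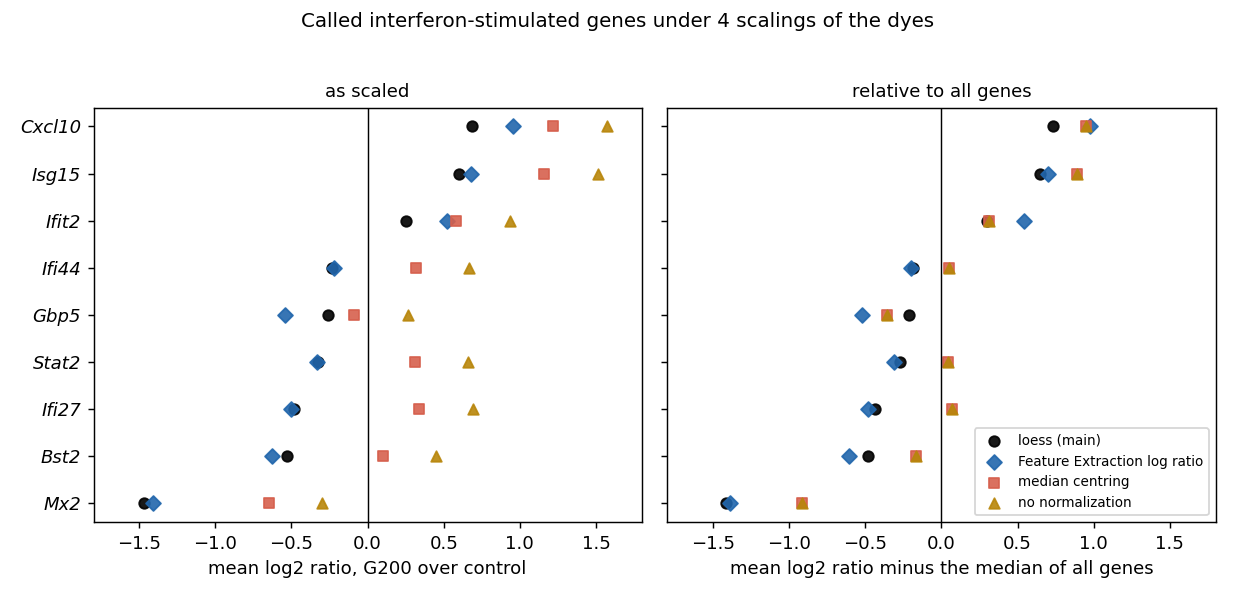
Mean log2 ratio (G200 over control, 3 arrays) of the 9 called interferon-stimulated genes under 4 scalings of the dyes, on the left as scaled and on the right after subtraction of the median of all genes. Cxcl10, Isg15 and Ifit2 lie to the right of 0 and Mx2 to the left in all of them, whereas Stat2, Ifi44 and Ifi27 change side in both panels. Median centring and no dye normalization differ by a constant shift of all genes, so their values on the right are the same by construction.

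All 25 tested genes were well above background in both colours on all 3 arrays. The 4 others with a probe were too dim to be tested. Dtx3l, Oasl and Tap1 were well above background on 0 arrays in either colour, and Ifih1 on 0 arrays in green and on 2 in red. A signal below this mark bounds the level and does not show that the transcript was missing.

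Promoter sequences are shown because the interferon-stimulated genes are grouped by their response to shared transcription factors. RefSeq promoters of the rat assembly GRCr8, each 300 bases from 250 before to 50 after a gene's start, were found for 26 of the 33 genes. The core of the interferon-stimulated response element (GAAANNGAAA, either strand) occurred in 17 of the 26, against 3.92% of all 33469 promoters, and the gamma-activated site (TTCNNNGAA, which reads the same on both strands) in 6, against 8.87% of all. The element occurred in 1 of 1 promoters of genes called higher, 4 of 5 of those called lower and 8 of 14 of those tested and not called. It was present among genes called in either direction and among those that did not pass the test, and a match describes the sequence and is not a site or a cause. No promoter entry was found for Mx2, Isg15, Ifit2, Usp18, Dhx58, Rigi or Zbp1.

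The stretches upstream of the start that hold a match to the element are given for the 5 called genes with one, from 5' to 3' on the strand of the gene. Letters that match the element are in capitals, and the gamma-activated site is not marked. They were taken from chr14:15988816-15988857 (Cxcl10, plus strand), chr16:18255058-18255123 (Bst2, minus strand), chr6:128355118-128355262 (Ifi27, plus strand), chr2:233910918-233910977 (Gbp5, plus strand) and chr2:243303841-243303891 (Ifi44, minus strand). In Gbp5 and Ifi44 the element lies on the other strand and appears as its reverse complement.
Cxcl10: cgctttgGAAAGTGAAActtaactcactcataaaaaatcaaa
Bst2: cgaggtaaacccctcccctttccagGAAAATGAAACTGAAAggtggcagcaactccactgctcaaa
Ifi27: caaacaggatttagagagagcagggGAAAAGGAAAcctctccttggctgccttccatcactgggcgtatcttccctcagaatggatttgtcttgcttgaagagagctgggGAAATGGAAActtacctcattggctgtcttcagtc
Gbp5: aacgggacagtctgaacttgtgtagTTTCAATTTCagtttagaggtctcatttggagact
Ifi44: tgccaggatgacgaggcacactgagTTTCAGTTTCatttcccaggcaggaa
The match of Cxcl10 began 243 bases before the start, that of Gbp5 56 and that of Ifi44 26, with a further match in Ifi44 26 bases after it. Bst2 held 2 overlapping matches, 131 and 125 bases before the start, and a gamma-activated site at 137, and Ifi27 held 2 that lay apart, at 169 and 84 bases. Stat2, the other called gene with a promoter entry, held neither motif in this window.

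**Figure D2:**
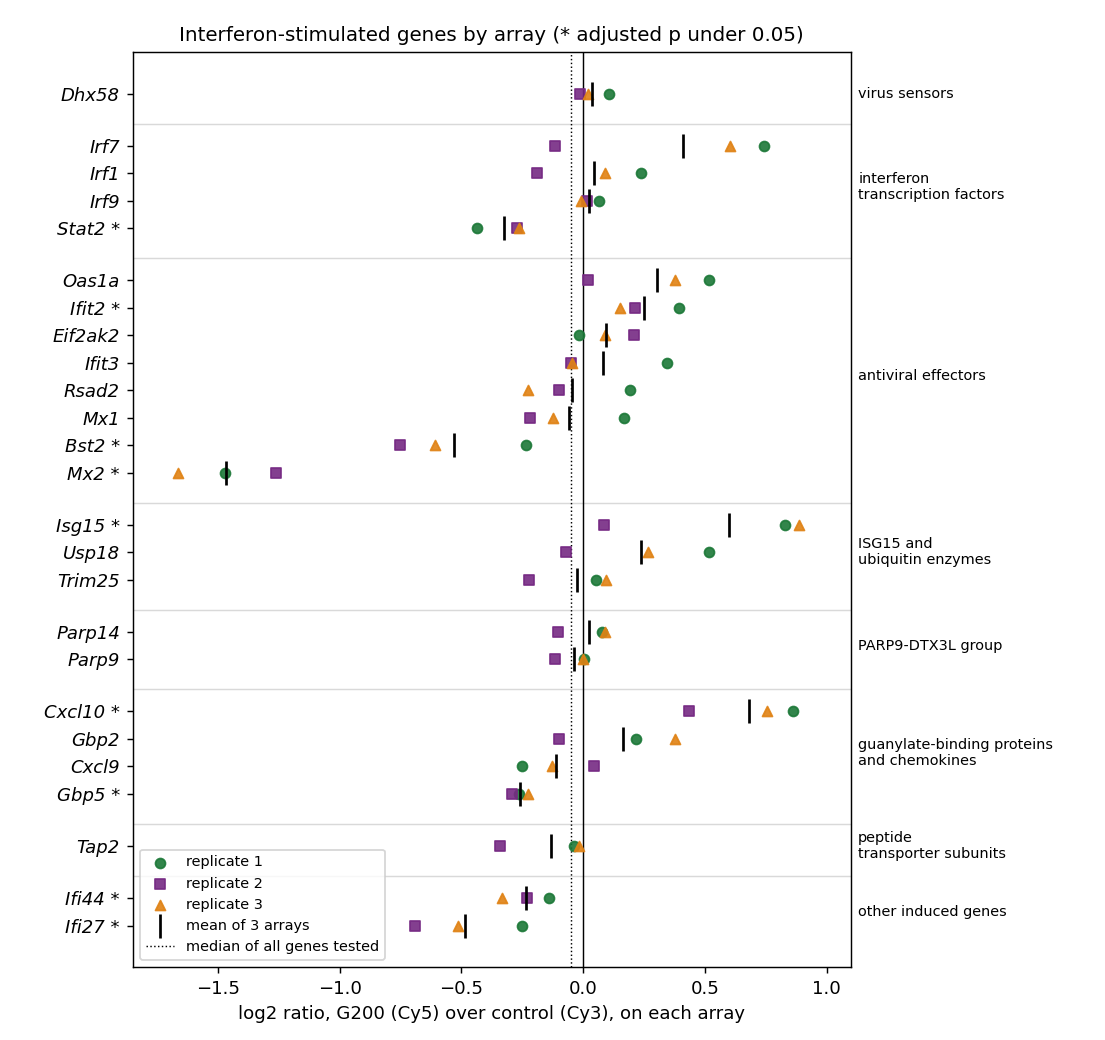
Log2 ratio of G200 over control on each of the 3 arrays for the 25 tested interferon-stimulated genes, grouped by role, with the mean as a bar and the median of all genes as a dotted line. Mx2 lies far to the left on every array, and replicate 2 is often the leftmost of the 3, as for Irf7, Isg15 and Usp18. The ratios are those after loess, and Stat2, Bst2, Gbp5, Ifi27 and Ifi44 lie above 0 without dye normalization.

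Of the cytoplasmic sensors of viral RNA, only Dhx58 was bright enough to be tested. Dhx58 (LGP2) binds double-stranded RNA and modulates the signals of the other sensors of its family. Its log2 ratios were 0.11, -0.01 and 0.02 on replicates 1, 2 and 3, and the mean of 0.04 did not pass the test (adjusted p = 0.675). With the authors' log ratio it was called higher (0.46, adjusted p = 0.0384), and it lay at -0.01 with median centring.

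Among the 4 transcription factors, Stat2 was lower in G200 with loess but was called higher without dye normalization (0.66, adjusted p = 0.0279) and lay at 0.31 with median centring, and Irf1, Irf7 and Irf9 were not called. With median centring Irf1 (0.65, adjusted p = 0.0480) and Irf7 (1.05, adjusted p = 0.0321) were called higher. STAT2 is part of the complex that type I interferons activate. Its normalized log2 intensity was 9.25, 9.28 and 9.37 in control and 8.82, 9.01 and 9.11 in G200 on replicates 1, 2 and 3. All 3 G200 values lay below all 3 control values, which are readings counted as 1 control sample. The mean log2 ratio was -0.32 (moderated SE 0.07, adjusted p = 0.0162), and it no longer passed without replicate 1 (-0.27, adjusted p = 0.0641) or without replicate 3 (-0.35, adjusted p = 0.0890). Irf7, the factor that amplifies the production of type I interferon, had log2 ratios of 0.74, -0.12 and 0.60. It was high on replicates 1 and 3 and near the control on replicate 2, so the channels overlapped, and the mean of 0.41 did not pass (adjusted p = 0.0959). Without replicate 2 its mean was 0.67 (adjusted p = 0.00985). Irf1, which is induced most directly by interferon gamma, had a mean of 0.05, and Irf9, the DNA-binding partner of STAT2, had 0.02 with a range of -0.01 to 0.07 over the arrays.

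With loess, the largest difference of the list was that of an antiviral effector, Mx2, whereas Cxcl10 had the largest with median centring and without dye normalization. Mx2 encodes a dynamin-like GTPase related to the influenza restriction factor MX1. Its log2 intensity was 14.04, 13.84 and 13.81 in control and 12.57, 12.58 and 12.14 in G200. The channels did not overlap, and each G200 value lay more than a log2 unit below the control on the same array. The ratios of -1.47, -1.26 and -1.66 gave a mean of -1.47 (moderated SE 0.09, adjusted p = 0.000734), a 2.76-fold lower level. With loess, Mx2 was the only interferon-stimulated gene with a difference of 2-fold or more at an unadjusted p under 0.05, and with median centring its mean was -0.65 (adjusted p = 0.0232) while Cxcl10, Isg15 and Irf7 exceeded 2-fold. Over all genes, 4.02% were lower by this criterion with loess. The call held with each array left out in turn (means of -1.57 to -1.37), and the mean was -0.30 without dye normalization (adjusted p = 0.266), which lies -0.92 from the median of all genes. The probe was bright, and 5% of the 299 genes within 0.5 log2 units of its brightness had ratios below -1.78.

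Bst2 (tetherin), which holds budding virus particles on the cell surface, was the other effector that was lower with loess, and it lay at 0.10 with median centring and 0.45 without dye normalization. Its log2 intensity was 9.33, 9.32 and 9.41 in control and 9.10, 8.56 and 8.80 in G200. The G200 values lay below every control value and were closest to it on replicate 1. The mean log2 ratio was -0.53 (moderated SE 0.11, adjusted p = 0.0132), and it no longer passed without replicate 2 (-0.42, adjusted p = 0.0505) or replicate 3 (-0.49, adjusted p = 0.0942). Ifit2, one of the proteins that bind viral RNA and restrain its translation, had log2 intensities of 7.08, 6.95 and 7.00 in control and 7.47, 7.16 and 7.15 in G200. It was higher on all 3 arrays without overlap, most of all on replicate 1. The mean of 0.25 (adjusted p = 0.0431) did not pass with any 1 array left out (adjusted p of 0.0828 to 0.186).

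The other 5 effectors tested were not called with loess. Oas1a, an enzyme that makes the oligoadenylate signal for RNA decay, had log2 ratios of 0.52, 0.02 and 0.38 and a mean of 0.31 (adjusted p = 0.0641). As with Irf7, the value on replicate 2 was the lowest, and without that array the mean was 0.45 (adjusted p = 0.0196). With the authors' log ratio it was 0.97 (adjusted p = 0.0304). With loess, means lay between -0.06 and 0.09 for Mx1, Rsad2 (viperin), Ifit3 and Eif2ak2, the kinase that halts translation in infected cells. Mx1 and Mx2 are related by sequence, yet the ratios of Mx1 were 0.17, -0.22 and -0.12. Without dye normalization Mx1 (0.93, adjusted p = 0.0171), Rsad2 (0.88, adjusted p = 0.0181) and Eif2ak2 (0.61, adjusted p = 0.0248) were called higher. A second probe of Eif2ak2 had a mean of 0.17 against 0.09.

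Isg15 encodes a protein related to ubiquitin that is attached to newly made proteins during the interferon response. Its log2 intensity was 8.07, 7.90 and 8.02 in control and 8.90, 7.98 and 8.91 in G200. Replicates 1 and 3 lay well above every control value, and replicate 2 lay within the control range, so the channels overlapped. The mean log2 ratio was 0.60 (moderated SE 0.16, adjusted p = 0.0304), with 1.16 after median centring and 1.51 without dye normalization. With loess it rested on replicates 1 and 3, since without replicate 1 it was 0.49 (adjusted p = 0.0637), without replicate 3 it was 0.46 (adjusted p = 0.168) and without replicate 2 it was 0.86 (adjusted p = 0.00609). Usp18, the protease that removes ISG15 and dampens receptor signalling, had ratios of 0.52, -0.07 and 0.27 and was not called (mean 0.24, adjusted p = 0.149). Without replicate 2 its mean was 0.39 (adjusted p = 0.0372). Trim25, a ubiquitin ligase that acts on the RNA sensor RIG-I, had a mean of -0.02 with loess, and without dye normalization Trim25 (0.89, adjusted p = 0.0162) and Usp18 (0.65, adjusted p = 0.0481) were called higher.

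The ADP-ribosyltransferases Parp9 and Parp14, which take part in interferon signalling with DTX3L, had means of -0.04 and 0.02 and were not called, though Parp14 was with median centring (0.65, adjusted p = 0.0309). A second probe of Parp14 had a mean of -0.01, of opposite sign and as close to 0.

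Cxcl10 and Cxcl9 are chemokines that draw activated T cells through the receptor CXCR3, and Gbp2 and Gbp5 are GTPases that attack intracellular pathogens. Cxcl10 had a log2 intensity of 7.81, 7.79 and 7.72 in control and 8.68, 8.23 and 8.47 in G200. Every G200 value exceeded every control value. The ratios of 0.86, 0.43 and 0.76 gave a mean of 0.68 (moderated SE 0.10, adjusted p = 0.00434), a 1.61-fold higher level, and the call held with each array left out in turn (means of 0.59 to 0.81). Its mean was 1.22 with median centring (adjusted p = 0.0172) and 1.57 without dye normalization (adjusted p = 0.00643). Cxcl9, a close relative, had ratios of -0.25, 0.04 and -0.13 and was not called (mean -0.11, adjusted p = 0.308), though it was called lower with the authors' log ratio (-0.77, adjusted p = 0.0386; 0.19 without dye normalization), and the difference between the 2 chemokines was not tested. Gbp5 had a log2 intensity of 6.88, 6.82 and 6.83 in control and 6.62, 6.53 and 6.61 in G200. The channels did not overlap and the arrays differed little among themselves. The mean of -0.26 (adjusted p = 0.0233), which was 0.26 without dye normalization, did not pass with any 1 array left out (adjusted p of 0.0597 to 0.127). Gbp2 had ratios of 0.22, -0.10 and 0.38 and was not called with loess (mean 0.17), but was with median centring (0.82, adjusted p = 0.0269).

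The peptide transporter subunit Tap2, which feeds peptides to class I molecules, had a mean of -0.13 and was not called. Ifi27 and Ifi44, induced genes that are widely used in interferon signatures, were both lower with loess and lay above 0 with median centring (0.34 and 0.32) and without dye normalization (0.69 and 0.67), where Ifi44 was called higher (adjusted p = 0.0348). Ifi27, a small mitochondrial membrane protein, had a log2 intensity of 13.57, 13.56 and 13.54 in control and 13.32, 12.87 and 13.02 in G200. The control values were nearly equal and the G200 values lay below them without overlap. The mean was -0.48 (moderated SE 0.10, adjusted p = 0.0121), and -0.47 without replicate 3 (adjusted p = 0.0874). Ifi44 had a log2 intensity of 8.34, 8.37 and 8.35 in control and 8.20, 8.14 and 8.02 in G200. These values did not overlap either, but the distance was small. The mean of -0.23 (adjusted p = 0.0435) did not pass with any 1 array left out (adjusted p of 0.0573 to 0.264).

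**Figure D3:**
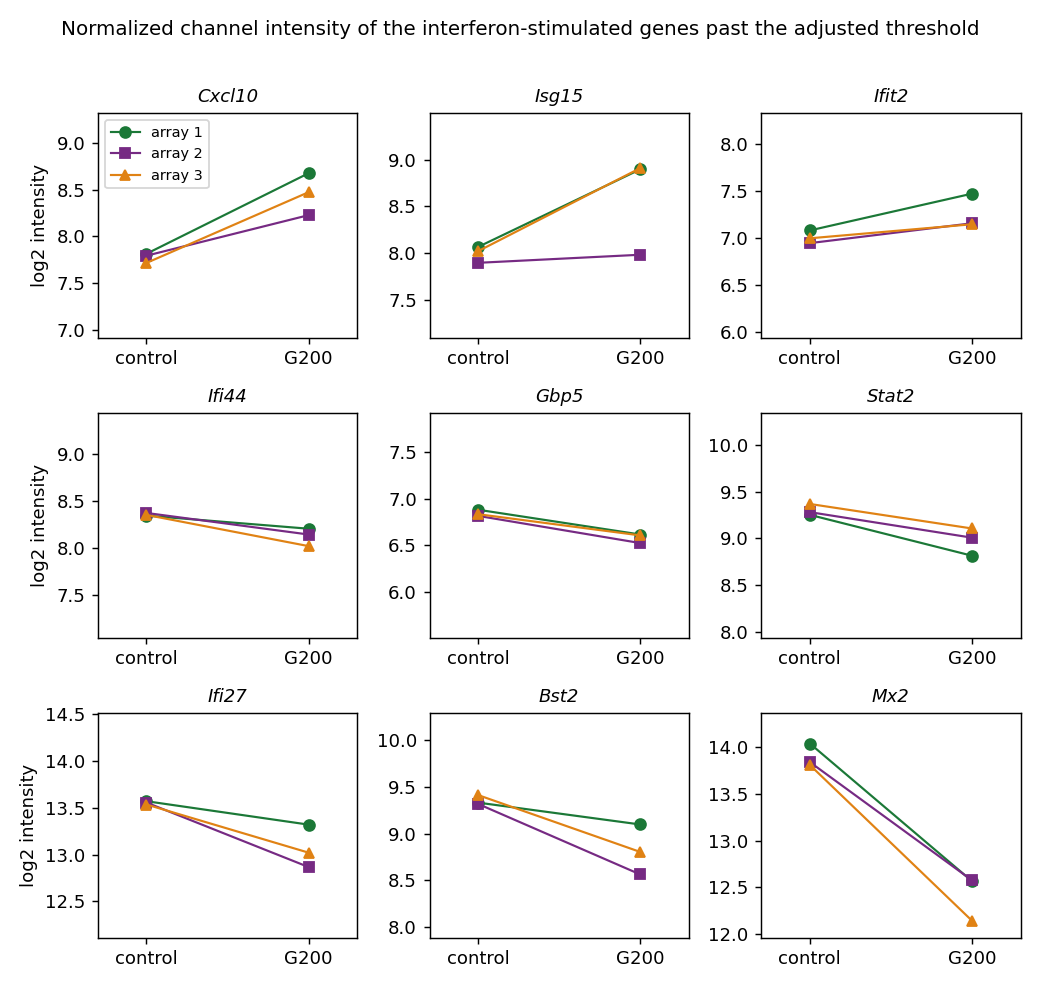
Normalized log2 intensity of the 9 called interferon-stimulated genes in control (Cy3) and G200 (Cy5), with a line for each array. The lines of Cxcl10 and Ifit2 go up and those of Mx2, and after loess those of Bst2, Ifi27, Stat2, Gbp5 and Ifi44 (up without dye normalization), go down on every array, whereas the line of replicate 2 is nearly flat for Isg15.

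The arrays differed in a common way over the list. The lowest of the 3 ratios fell on replicate 2 for 17 of the 25 genes (68.0%), on replicate 1 for 3 and on replicate 3 for 5. Over all genes tested, replicate 2 was the lowest for 32.7%. The median over the 25 genes was 0.08, -0.10 and 0.00 on replicates 1, 2 and 3, against -0.06, -0.04 and -0.05 over all genes. With replicate 2 left out, 8 of the genes passed, 5 higher and 3 lower with loess, and Irf7, Oas1a and Usp18 were then among those higher. Without replicate 1 there were 4 called, and without replicate 3 there were 2, Cxcl10 and Mx2. The share of all genes called moved in the same order, from 37.5% with 3 arrays to 35.1% without replicate 2, 24.9% without replicate 1 and 11.4% without replicate 3. In red, 56.6% of spots passed the background mark on replicate 2, against 63.0% and 61.0% on the others.

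Markers of macrophages showed the same order. Of 15 listed genes 11 were tested, and replicate 2 was the lowest for 9 of the 11. Lyz2 was higher (0.60, adjusted p = 0.00876), though not without replicate 3 (0.52, adjusted p = 0.0721). C1qb was lower with loess (-0.43, adjusted p = 0.0203), lay at 0.23 with median centring, and did not pass without replicate 2 (-0.32, adjusted p = 0.0688) or replicate 3 (-0.41, adjusted p = 0.121). The median was 0.19, -0.10 and 0.04 on replicates 1, 2 and 3. Their summed intensity was 11169, 11110 and 11110 in control and 16227, 11772 and 15344 in G200, and the gene of highest intensity was Lyz2. Cd163, Mrc1 and Itgam were too dim to be tested. The part of macrophages in the ratios of the interferon-stimulated genes was not tested.

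**Figure D4:**
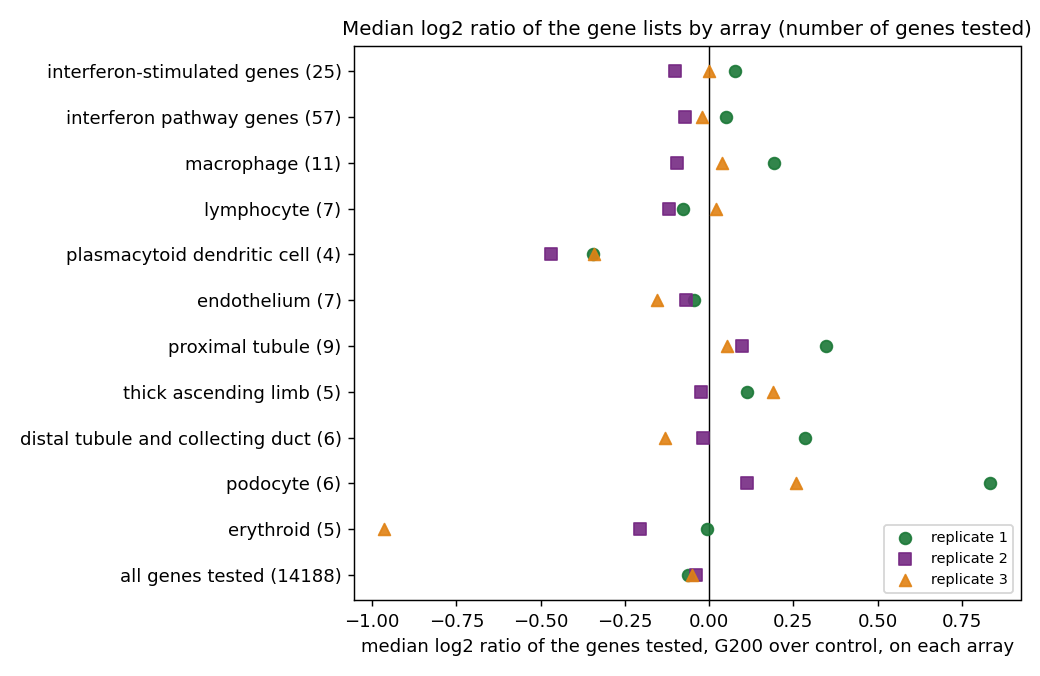
Median log2 ratio of each gene list on each of the 3 arrays, with the number of genes tested in parentheses and the liver list left out for its range. Replicate 2 lies left of the other arrays for the interferon-stimulated and pathway genes and for macrophage, lymphocyte, plasmacytoid dendritic cell, thick ascending limb and podocyte markers, and replicate 3 for endothelial, proximal tubule, distal tubule and erythroid markers. The values are those after loess, and without dye normalization the median of the interferon-stimulated genes is 0.67 and that of all genes 0.62.

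Other genes of the interferon pathway gave a like picture. Of 114 listed genes outside the 33, 88 had a probe and 57 were tested, with 6 higher and 12 lower with loess and a median of 0.02. Over all genes tested, 11.6% were higher and 25.9% lower with loess, and the pathway counts lie near these shares. The counts of the pathway and marker lists below stand against the same shares. The interferons themselves had probes for 6 of 12 genes, among them Ifnb1 and Ifng, and 0 were bright enough to be tested. Ifnar1, a chain of the type I receptor, was also too dim. The interferon gamma receptor chains Ifngr1 (0.59, -0.08 and 0.16) and Ifngr2 (-0.19, -0.07 and -0.25) were not called with loess. Without dye normalization both chains were called higher (1.08, adjusted p = 0.0142, and 0.59, adjusted p = 0.0367).

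Upstream of the interferons, 1 of 9 tested genes was higher and 3 were lower with loess. Tlr3, the endosomal receptor for double-stranded RNA, was higher (0.59, 0.44 and 0.61, mean 0.55, adjusted p = 0.00327). Irf3, the factor that starts interferon transcription, had a log2 intensity of 11.79, 11.77 and 11.72 in control and 10.60, 10.92 and 10.39 in G200. The channels were far apart on each array, with a mean of -1.12 (moderated SE 0.10, adjusted p = 0.00129). Its mean was -0.37 with median centring (adjusted p = 0.0704) and -0.02 without dye normalization. Relative to the median of all genes it was -0.64. That value is the same in both settings by construction, since their mean ratios differ by a constant shift of all genes. Ikbke, a kinase that phosphorylates IRF3, had a mean of -0.67 (adjusted p = 0.00186) and 0.02 without dye normalization, and Sting1, the adaptor for cytosolic DNA, had -0.48 (adjusted p = 0.00645), with 0.05 after median centring and 0.40 without dye normalization. Sting1 did not pass without replicate 3 (-0.45, adjusted p = 0.0651).

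Negative regulators were represented by 7 tested genes, of which the phosphatase Ptpn1 (-0.52, adjusted p = 0.00268) and the SUMO ligase Pias3 (-0.22, adjusted p = 0.0462) were lower with loess and above 0 with median centring (0.10 and 0.16) and without dye normalization (0.45 and 0.51). Pias3 did not pass with any 1 array left out (adjusted p of 0.111 to 0.173). The inducible inhibitors Socs1 and Socs3 were too dim to be tested.

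Of 23 other interferon-stimulated genes tested, 2 were higher and 6 lower with loess. Igtp, an immunity-related GTPase that acts on vacuoles holding pathogens, had a log2 intensity of 14.67, 14.41 and 14.45 in control and 13.12, 13.42 and 13.03 in G200. As with Mx2, every G200 value lay far below every control value, with a mean of -1.32 (moderated SE 0.12, adjusted p = 0.00118). It was below 0 under each scaling, at -0.48 with median centring (adjusted p = 0.0253) and -0.13 without dye normalization (adjusted p = 0.595). The mean over its probes was -0.64 with loess (adjusted p = 0.00222), a smaller difference than that of the brightest probe, which gave the values above. Oas1b, a relative of Oas1a that limits flavivirus in rodents, had ratios of -1.02, -0.69 and -1.01 (mean -0.91, adjusted p = 0.00144), with -0.10 after median centring and 0.25 without dye normalization. Ifi27l2b, a relative of Ifi27, had ratios of -0.13, -1.41 and -0.82 (mean -0.79, adjusted p = 0.0350). It was near the control on replicate 1, did not pass without replicate 2 (-0.48, adjusted p = 0.103) or replicate 3 (-0.77, adjusted p = 0.146), and lay at 0.29 without dye normalization. Ifitm2, a membrane protein that blocks virus entry, and Lgals3bp, a secreted glycoprotein, were the 2 higher genes (0.69, adjusted p = 0.00425, and 0.38, adjusted p = 0.0140), the latter not without replicate 3 (0.32, adjusted p = 0.115).

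Matching stretches of the promoters of Ifitm2, Igtp and Oas1b are shown as examples beside those of the listed genes. The element also occurred in promoters of the called pathway genes Lgals3bp, Psmb8, Isg20 and Shisa5, which are not shown. The stretches shown were taken from chr1:205482349-205482406 (minus strand), chr10:42874919-42874978 (plus strand) and chr12:41395871-41395936 (minus strand) of GRCr8, with the letters that match the element in capitals.
Ifitm2: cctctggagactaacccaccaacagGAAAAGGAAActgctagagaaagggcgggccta
Igtp: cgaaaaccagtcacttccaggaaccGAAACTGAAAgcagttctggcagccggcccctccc
Oas1b: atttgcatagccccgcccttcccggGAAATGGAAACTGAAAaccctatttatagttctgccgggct
Ifitm2 was higher in G200, and Igtp and Oas1b were lower with loess (Oas1b 0.25 without dye normalization), and all 3 promoters held the element. Of 94 promoters of the pathway genes, 32 held it. Oas1b held 2 overlapping matches in the same arrangement as Bst2. A gamma-activated site began 114 bases before the start in Igtp, within the stretch shown, and 213 before it in Oas1b.

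Class I antigen presentation, much of which interferon gamma induces, had 11 genes tested, with 2 higher and 1 lower with loess and a median of -0.11. The immunoproteasome subunit Psmb8 had ratios of 0.57, 0.08 and 0.34 (mean 0.33, adjusted p = 0.0467) and did not pass without replicate 1 (adjusted p = 0.165) or replicate 3 (adjusted p = 0.190). The chaperones Pdia3 and Calr, which load class I molecules, had means of 0.29 (adjusted p = 0.0182) and -0.37 (adjusted p = 0.0352). Pdia3 did not pass without replicate 1 (adjusted p = 0.0714) or replicate 3 (adjusted p = 0.121), Calr did not pass with any 1 array left out (adjusted p of 0.0717 to 0.108), and Calr lay at 0.28 with median centring and was called higher without dye normalization (0.63, adjusted p = 0.0281). B2m, the light chain of class I molecules, had a mean of 0.04 and was not called.

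Markers of other cell types were read on the same arrays, and their part in the ratios of the interferon-stimulated genes was not tested. Of 7 lymphocyte markers tested, Klrk1 was lower with loess (-0.33, and 0.30 without dye normalization) and the others were not called, with summed intensities of 796, 761 and 785 in control and 763, 713 and 780 in G200. Klrk1, the gene of highest control intensity, did not pass without replicate 1 (-0.27, adjusted p = 0.0772) or replicate 3 (-0.31, adjusted p = 0.141), and Cd3e, Cd4 and Cd8a were too dim to be tested. Plasmacytoid dendritic cells, the main source of type I interferon in blood, had 4 markers tested, of which Ccr9 was lower (-1.23, adjusted p = 0.000959, but -0.38 and 0.117 without dye normalization) and so, with loess, was Bst2, itself on the list and above 0 without dye normalization. Their summed intensities were 1957, 1901 and 1927 in control and 1396, 1354 and 1442 in G200, the gene of highest intensity was Tcf4 (-0.23), and the defining factor Irf8 was too dim to be tested. Of 7 endothelial markers, Pecam1 was lower with loess (-0.56, and 0.14 with median centring), and the gene of highest intensity, Plvap, was not called (-0.20). Endothelial sums were 8025, 7561 and 7713 in control and 7926, 6202 and 6621 in G200, with Tek and Tie1 too dim.

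Markers of the nephron were tested for the proximal tubule (9 genes, 3 higher and 1, Miox, lower with loess), the thick ascending limb (5, 2 higher), the distal tubule and collecting duct (6, 1 lower with loess) and podocytes (6, 1 higher). The genes of highest control intensity in these lists were Miox (-0.25), Umod (0.87), Aqp2 (-0.30) and Podxl (0.36), and Miox was called higher with median centring (0.65, adjusted p = 0.0273) and without dye normalization (1.00, adjusted p = 0.00929). The largest mean ratios were those of Slc5a2 (0.66), Umod, Slc4a1 (-0.68, and 0.34 without dye normalization) and Ptpro (0.78), of which Slc5a2 and Ptpro were not called. On replicates 1, 2 and 3 the ratios were 1.59, 0.16 and 0.22 for Slc5a2 and 1.70, 0.33 and 0.33 for Ptpro. Both means rested largely on replicate 1. Summed intensities in control and G200 were 81883, 71224 and 75195 against 72951, 66013 and 70326 for the proximal tubule, and 38621, 40974 and 41186 against 62879, 61719 and 62424 for the thick ascending limb. They were 29427, 26596 and 27734 against 24224, 25913 and 19913 for the distal tubule and collecting duct, and 1495, 1464 and 1436 against 2697, 1591 and 1725 for podocytes. Slc5a12 and Calb1 were too dim to be tested. The median of the podocyte markers was 0.83, 0.11 and 0.26 on replicates 1, 2 and 3.

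Transcripts typical of liver were well above background in control kidney and were lower in G200 for 12 of 12 markers, with a median log2 ratio of -1.71, -3.27 and -4.31 on replicates 1, 2 and 3. Their summed intensity was 172351, 200355 and 210186 in control and 49057, 19909 and 7825 in G200. Ttr was the gene of highest control intensity (-3.72) and Apoc1 that of largest ratio (-4.05). Of 5 erythroid markers, 2 were lower with loess, and the median was -0.01, -0.20 and -0.96, with Hba-a1 of highest intensity (-0.60, not called) and Epb42 too dim. Erythroid sums were 104119, 100567 and 117389 in control and 108319, 86603 and 43711 in G200. Both lists, like that of the distal tubule and collecting duct, were lowest on replicate 3 for every gene tested, whereas the interferon-stimulated genes were lowest there for 5 of 25. Slc4a1, lower with loess, is a member of both the erythroid list and the list of the distal tubule and collecting duct.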

How the data were processed

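The authors deposited Agilent Feature Extraction tables (version 11.5.1.1 in file headers, 9.3.2.1 in labels). The deposited median intensities of spots and background were uncorrected, and the log10 ratio of red over green had been corrected and normalized by the authors' software. Here intensities were corrected with limma 3.58.1 in R 4.3.3 (normexp, offset 50) and normalized by loess within arrays, leaving out control spots and outliers (635, 736 and 945). Replicate spots were averaged. Of 30367 probes, 18355 (60.4%) were named through RefSeq. A probe was kept when its green, or its red, was well above background on each array (15658), and the brightest stood for its gene (14188). Mean log2 ratios were tested against 0 with lmFit and eBayes (two-sided, Benjamini-Hochberg). The array is the block, and all 3 lie on 1 slide. Whether RNA was pooled is not stated. The steps were tested on simulated data. Members and lists were chosen with earlier results of these data known. Genes named were all members, the receptors, called pathway genes and the brightest or most changed markers.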

Additional observations from a re-analysis of the deposited data

How the results depend on the processing

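The count of interferon-stimulated genes called was 9, and 7 to 9 with median centring, an offset of 0, the authors' log ratio, either filter on dim probes, the mean of the probes of a gene, the robust variance model and separate channels. The genes behind it changed, since only 4 of the 9 calls were kept with median centring and 6 with the authors' log ratio, which lost Isg15 (adjusted p = 0.0749), Stat2 (0.0595) and Ifi44 (0.141). The offset of 0 lost Ifi44 (0.0819) and the robust model Isg15 (0.0506). The count was 15 without dye normalization and 2 to 8 with 1 array left out, while the share of all genes called went from 37.5% to 58.6% and to 11.4% to 35.1%. The methods' t-test called 4 from log ratios and 5 from channels unadjusted, and 0 and 0 after Benjamini-Hochberg. Of them 3 were higher, against 7 with median centring (gaining Irf7, Irf1, Gbp2 and Parp14), 15 without dye normalization, 1 with separate channels and no replicate block, 1 to 5 with 1 array left out and 1 and 1 by the methods' t-test unadjusted (0 and 0 adjusted). Lower were 6, against 1 with median centring, 0 without dye normalization (limma; all 15 calls were higher), 1 to 3 with 1 array left out and 3 with the methods' t-test from log ratios (0 and 0 adjusted). The 18 pathway calls became 36 without dye normalization, 7 to 14 with 1 array left out, and 0 and 2 with the methods' t-test from log ratios and from channels after adjustment, against 18 and 13 unadjusted. The median of the interferon-stimulated genes moved from 0.02 to 0.32 with median centring and 0.67 without dye normalization, and the median of all genes moved alike, to 0.27 and 0.62. The block, the pairing by array, changed 2 calls among the 9, Isg15 and Ifit2, which did not pass in the fit of separate channels with no replicate block (adjusted p = 0.105 and 0.109). Signs were followed for the listed genes, the receptors and up to 3 called genes of each pathway list. With median centring the sign turned for Bst2 (0.10), Dhx58 (-0.00802), Ifi27 (0.34), Ifi44 (0.32), Mx1 (0.58), Parp9 (0.0408), Rsad2 (0.53), Stat2 (0.31), Tap2 (0.25), Trim25 (0.54), Ifngr2 (0.24), Calr (0.28), Ptpn1 (0.10) and Pias3 (0.16). Without dye normalization it turned for Bst2 (0.45), Cxcl9 (0.19), Gbp5 (0.26), Ifi27 (0.69), Ifi44 (0.67), Mx1 (0.93), Parp9 (0.39), Rsad2 (0.88), Stat2 (0.66), Tap2 (0.61), Trim25 (0.89), Ifngr2 (0.59), Calr (0.63), Ptpn1 (0.45), Pias3 (0.51), Oas1b (0.25), Ifi27l2b (0.29) and Ikbke (0.0231), and Stat2, Ifi44, Mx1, Rsad2, Trim25, Ifngr2 and Calr passed as higher there. Among other called genes it also turned with median centring for Sting1 (0.05), C1qb (0.23), Pecam1 (0.14), Miox (0.65), Ahsp (0.04), Isg20 (0.03) and Shisa5 (0.28), and without dye normalization for these and Klrk1 (0.30), Slc4a1 (0.34) and Sp100 (0.32), and Miox and Shisa5 passed as higher there. With the authors' log ratio it turned for Irf1 (-0.0018), Parp14 (-0.0014) and Rsad2 (0.11). These settings shift all genes, and the cause was not tested. With 1 array left out the means crossed 0 for Ifit3 (-0.0482 to 0.15), Irf1 (-0.0494 to 0.16), Mx1 (-0.17 to 0.0237), Parp14 (-0.0117 to 0.0843), Parp9 (-0.0572 to 0.0023), Rsad2 (-0.16 to 0.0487) and Trim25 (-0.0832 to 0.0734), all uncalled. Signals near background shrink towards 0 with the offset of 50, which limits the ratios of dim genes. With the authors' log ratio Cxcl9 lay at -0.77 (adjusted p = 0.0386), Dhx58 at 0.46 (adjusted p = 0.0384) and Oas1a at 0.97 (adjusted p = 0.0304). Gbp5 (-0.54), Ifit2 (0.52), Usp18 (0.98) and Ikbke (-1.06) also lay farther from 0 than with loess. Psmb8 lay at 0.92 and lost its call (adjusted p = 0.0630). Not all genes moved this way, since Calr (-0.25, adjusted p = 0.214) and Ifi44 (-0.22) lay closer to zero.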
